A study of Mus musculus with 12 samples.

Results

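The mouse miRNAs mmu-miR-3963, mmu-miR-3968, and mmu-miR-6366, written without the species prefix from here on, are 3 of the 1881 miRNAs named on an Agilent single-color miRNA array, and they were chosen because their signal in microglial exosomes was higher at 14 or 42 DPI (days post-injury) than in sham mice. The choice used the arrays of sham, 14 DPI, and 42 DPI, so the levels in these groups are given as a description with no test. The arrays of 3 DPI were not used to choose them, and the comparison of 3 DPI with sham, which shares the sham arrays with the choice, was tested. Its standard errors take their spread from all 12 arrays, so also from those of 14 and 42 DPI. Each of the 3 was matched by its exact name in the array files, each is read by 2 probes of 15 spots, and all 3 are among the 486 miRNAs that were detected on every array of at least 1 group.

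The mice were male C57BL/6 animals, aged 12 weeks by the methods, and the labels give no genetic change in any group. The rmTBI (repetitive mild traumatic brain injury) groups received closed-head impacts under isoflurane, repeated at fixed intervals, and were killed at 3, 14, or 42 DPI to stand for an acute, a sub-acute, and a chronic phase. In sham mice only the blow to the head was left out. Exosomes, small vesicles that cells release, were precipitated from dissociated brain tissue, named cerebrum in the labels and bilateral cortex with hippocampus in the methods, and those bound by an antibody against CD11b, a surface protein of microglia and other myeloid cells, were taken as microglial. Total RNA was labeled with cyanine 3 and hybridized to 1 array per sample, with 3 arrays per group and 12 in all. Nothing in the labels says that the 3 arrays of a group come from separate mice, and the methods speak of independent experiments only in general, so the p-values measure the spread between these arrays, which may be technical.

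A miRNA is a short RNA that is cut from a hairpin precursor and guides an Argonaute protein to partly matching messenger RNAs, whose translation or stability it lowers. Pairing rests mainly on the seed, the bases just after the 5′ end, and miRNAs that share a seed form a family. Exosomes carry miRNAs out of the cell of origin and can deliver them to other cells. miR-3963, miR-3968, and miR-6366 were added late to the miRNA registry, and no firmly established target or role of any of them is given here.

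The mature sequences of the 3 are shown first, with bases 2 to 8, the seed, in capitals, because miR-3963 and miR-3968 resemble each other. They come from RefSeq on GRCm38.p6 and are written 5′ to 3′.
miR-3963: uGUAUCCCacuucugacac
miR-3968: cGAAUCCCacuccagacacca
miR-6366: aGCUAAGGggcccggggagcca
The mature miR-3963 lies at chr3:151023839-151023857 on the minus strand, on the 5p side of its hairpin, which overlaps no other gene of the RefSeq table. The mature miR-3968 lies at chr11:115447969-115447989 on the minus strand, on the 3p side of a hairpin inside the span of the protein-coding gene Trim80. The mature miR-6366 lies at chr16:18165093-18165114 on the minus strand, on the 3p side of its hairpin, which overlaps no other gene of that table. The 3 are thus on separate chromosomes. Laid side by side from their first bases, miR-3963 and miR-3968 have the same base at 15 of 19 positions, hold an identical stretch of 8 bases, and match at 6 of the 7 seed bases. miR-6366 has a GC content of 72.7%, against 47.4% for miR-3963 and 57.1% for miR-3968, and shares a longest stretch of 3 bases with either. The seeds thus differ, and no other of the 1608 array miRNAs that matched the RefSeq table carries the seed of a member.

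On the arrays, spot intensities were averaged per probe, the probes of a miRNA were summed, and the sum was divided by the 75th percentile of the array and put on the log2 scale. This value is called the scaled level here. The 75th percentile itself, in intensity units, ran from 217 to 348 on the sham arrays. Its range was 401 to 619 for 3 DPI, 588 to 1173 for 14 DPI, and 1385 to 2936 for 42 DPI. The number of detected miRNAs rose with it, from between 243 and 285 in sham to between 490 and 579 at 42 DPI, and no spot was saturated. The 3 sham arrays and replicate 1 of 3 DPI were on slide 1 and the remaining 8 on slide 2, so sham shares no slide with 14 or 42 DPI, and slide and injury cannot be told apart there. The arrays also cannot tell fewer exosomes carrying a miRNA from less of it in each. All spots of miR-3963, miR-3968, and miR-6366 lay within 2 µm of the fitted scan grid of their own array. On each injury array 30 spots outside these 3 miRNAs lay more than 50 µm from that grid.

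miR-3963 was well above background on all 12 arrays. Its scaled levels on replicates 1, 2, and 3 were 4.10, 3.84, and 4.03 in sham and 3.99, 3.38, and 3.94 at 3 DPI. At 14 DPI they were 5.54, 5.15, and 5.14, and at 42 DPI 4.14, 4.77, and 4.41. The 3 arrays of 14 DPI stand clear of every other array, those of 42 DPI start just above the highest sham array, and those of 3 DPI overlap sham. The group means were 3.99 ± 0.13 for sham, 3.77 ± 0.34 for 3 DPI, 5.28 ± 0.23 for 14 DPI, and 4.44 ± 0.32 for 42 DPI (SD, n = 3 arrays each). The order of the levels was therefore 14 DPI, 42 DPI, sham, and 3 DPI, and the neighbors sham and 3 DPI did not differ beyond their spread.

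miR-3968 was the dimmest of the 3 against background, and was called well above background on 2 of 3 sham arrays and on all 9 injury arrays. Its summed intensity before scaling was 13.3, 20.0, and 59.6 on the sham arrays, 37.9, 54.1, and 42.8 at 3 DPI, 175.6, 1190, and 1111 at 14 DPI, and 1948, 1049, and 1341 at 42 DPI. Sham and 3 DPI overlap in these values, while each array of 14 and 42 DPI is brighter than each array of sham and 3 DPI. After scaling, sham replicate 1 lay at the floor of -3.66, and replicates 2 and 3 had -3.44 and -2.55. The floor, alike on all arrays, was chosen as the highest, over the arrays, of the lowest scaled level of a detected miRNA. The scaled levels were -3.40, -3.52, and -3.40 at 3 DPI, -1.74, 0.02, and -0.01 at 14 DPI, and -0.59, -0.40, and -0.47 at 42 DPI. Replicate 1 of 14 DPI lies between the low groups and the other late arrays. The group means were -3.22 ± 0.59 for sham, -3.44 ± 0.07 for 3 DPI, -0.58 ± 1.01 for 14 DPI, and -0.49 ± 0.10 for 42 DPI (SD, n = 3 arrays each). Neither 42 DPI and 14 DPI nor sham and 3 DPI differed beyond their spread.

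miR-6366 was well above background on all 12 arrays. Its scaled levels were 0.82, 1.61, and 2.05 in sham and 1.12, 0.69, and 1.06 at 3 DPI. They were 1.77, 3.43, and 3.53 at 14 DPI and 2.93, 3.49, and 3.01 at 42 DPI. The arrays of 42 DPI lie above every sham and 3 DPI array, and so do replicates 2 and 3 of 14 DPI, while replicate 1 of 14 DPI falls inside the sham range. Taken by replicate number, the differences of 14 DPI from sham were 0.95, 1.83, and 1.48, each above 0. Pairing by number comes only from correlations between these same arrays, and the member was chosen on this contrast, so nothing is read from it. The group means were 1.49 ± 0.62 for sham, 0.95 ± 0.23 for 3 DPI, 2.91 ± 0.99 for 14 DPI, and 3.14 ± 0.30 for 42 DPI (SD, n = 3 arrays each). In the order 42 DPI, 14 DPI, sham, and 3 DPI, the pairs of neighbors overlapped.

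**Figure D1:**
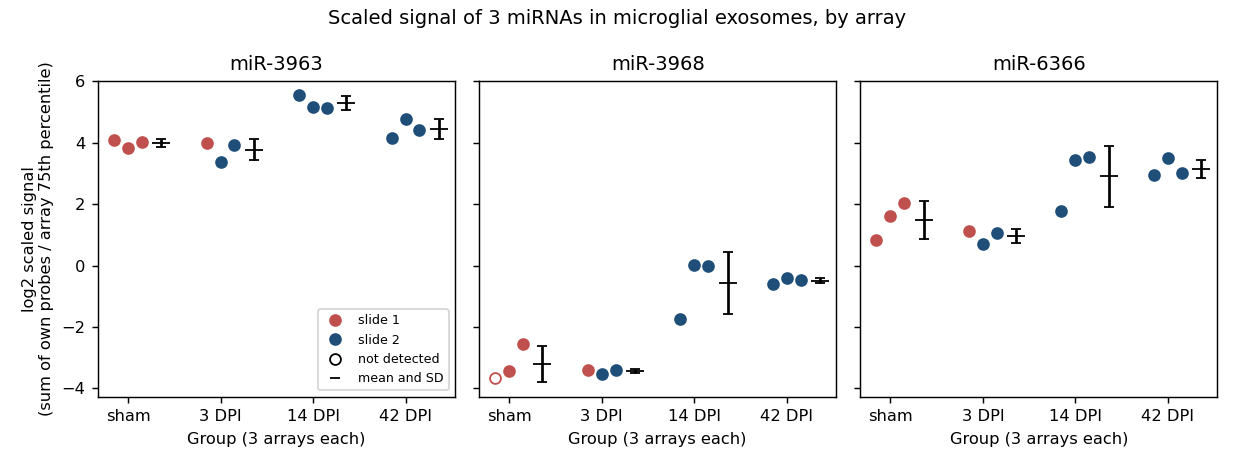
Scaled level (log2 of the summed intensity of a miRNA's own probes over the array's 75th percentile) of miR-3963, miR-3968, and miR-6366 on each of 12 arrays by group, colored by slide, with the mean and SD of 3 arrays beside each group and an open circle for an array on which the miRNA was not detected. Replicate 1 of 14 DPI sits low for miR-3968 (-1.74) and miR-6366 (1.77) and high for miR-3963 (5.54).

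At 3 DPI none of the 3 miRNAs differed from sham beyond the spread between arrays. The log2 change of miR-3963 was -0.22 with a standard error of 0.21 and a 95% interval from -0.70 to 0.26 (limma, adjusted p = 1). For miR-3968 it was -0.22 with a standard error of 0.47 and an interval from -1.30 to 0.85 (limma, adjusted p = 1). For miR-6366 it was -0.54 with a standard error of 0.49 and an interval from -1.66 to 0.59 (limma, adjusted p = 1). The point values lie below 0 and the intervals hold both directions, so the size and the sign of a change at 3 DPI are not settled by 3 arrays per group. Of the 486 miRNAs tested, limma called 0 higher (0%) and 0 lower (0%) at 3 DPI at an adjusted p under 0.05, with 5 at an unadjusted p under 0.05, and the methods' t-test gave 1 before and 0 after adjustment. All 3 arrays lay above sham for 0 of the 3 members at 3 DPI, against 0.617% of all miRNAs tested. The signs turn positive for all 3 without scaling between arrays, for miR-3963 also in the deposited table, and for miR-3968 also with 0.5 times the floor or without sham replicate 3.

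At 14 DPI the mean level was above sham for each of the 3, by 1.29 on the log2 scale for miR-3963 (standard error 0.21, a 2.44-fold difference), 2.64 for miR-3968 (standard error 0.47), and 1.42 for miR-6366 (standard error 0.49, 2.67-fold). The sham mean of miR-3968 holds an undetected array at the floor, so no fold is given for it, and its difference was 2.89 with 0.5 times the floor and 2.05 with double the floor. All 3 arrays lay above all sham arrays for miR-3963 and miR-3968, 2 of 3 members, beside 3.29% of all miRNAs tested. Since the members were chosen on this contrast, nothing is read from that count. Ordered by the size of the rise at 14 DPI, miR-3968 was number 1, miR-6366 number 2, and miR-3963 number 4 of 486. These ranks, too, are on the contrast used for the choice. With normexp background correction the difference of miR-3968 was 0.91, below 1.60 for miR-3963 and 1.58 for miR-6366. Replicate 1 carries much of the spread. Without it the log2 differences were 1.16 for miR-3963, 3.22 for miR-3968, and 1.99 for miR-6366. That array had a 75th percentile of 588 and 408 detected miRNAs, against 1173 and 469 for replicate 2 and 1116 and 474 for replicate 3. The part of these in its low miR-3968 and miR-6366 levels was not tested. Its scaled miR-3963 level was the highest of all 12 arrays. Before scaling, its summed miR-3963 intensity was 27362, against 41787 on replicate 2 and 39347 on replicate 3.

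At 42 DPI the log2 difference from sham was 0.45 for miR-3963 (standard error 0.21, 1.37-fold), 2.73 for miR-3968 (standard error 0.47), and 1.65 for miR-6366 (standard error 0.49, 3.15-fold). That of miR-3968 was 2.98 with 0.5 times the floor and 2.13 with double the floor. That of miR-3963 was 1.22 when the 75th percentile was taken over all miRNAs, and between 0.70 and 0.87 by the total signal, with normexp, with quantile normalization, in the deposited table, and with a slide term. All arrays lay above all sham arrays for 3 of 3 members, beside 23.9% of all miRNAs tested, and here too the members were chosen on the contrast. miR-3968 had rank 1, miR-6366 rank 3, and miR-3963 rank 85 of 486 by size of the rise. With normexp the difference of miR-3968 was 0.90, below the 1.91 of miR-6366. Between 14 and 42 DPI, both on slide 2, miR-3963 fell by 0.84 on the log2 scale (standard error 0.21), with all 3 arrays of 42 DPI below all 3 of 14 DPI, beside 12.1% of all miRNAs tested. Over the same interval miR-3968 differed by 0.09 (standard error 0.47) and miR-6366 by 0.24 (standard error 0.49), with overlapping arrays. Before scaling, the summed intensity of miR-3963 did not show this order, with 27362, 41787, and 39347 at 14 DPI and 51757, 37862, and 39367 at 42 DPI, so the lower level at 42 DPI is one relative to the other miRNAs on the array. With quantile normalization the differences of miR-3963 from sham at 14 and 42 DPI were closer, 0.96 and 0.78.

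Within slide 2, which holds replicates 2 and 3 of 3 DPI, the late arrays can be set against 3 DPI with no difference of slide. The log2 difference of 14 DPI from these 2 arrays was 1.62 for miR-3963 (standard error 0.27), 2.88 for miR-3968 (standard error 0.56), and 2.04 for miR-6366 (standard error 0.58). At 42 DPI it was 0.78, 2.97, and 2.27, with the same standard errors. Each array of 14 and 42 DPI lay above each array of 3 DPI for the 3 members, also when replicate 1 of 3 DPI on slide 1 was included. Over all miRNAs tested and all arrays, 2.88% had this separation at 14 DPI and 21.2% at 42 DPI. These differences are descriptions, since the late arrays were used to choose the members.

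Probe by probe, the late differences from sham had the same sign for both probes of miR-3963 and of miR-6366. The probes of miR-3963, A_54_P00005667 and A_54_P00005668, were detected on all 12 arrays, and their log2 differences from sham were 1.41 and 1.24 at 14 DPI and 0.60 and 0.39 at 42 DPI. Those of miR-6366, A_54_P00006058 and A_54_P00006059, were also detected on all 12 arrays, with 1.52 and 1.22 at 14 DPI and 1.76 and 1.45 at 42 DPI. The spots of these 4 probes varied little, with a coefficient of variation between 0.845% and 7.01% over the spots of an array, so the difference of replicate 1 of 14 DPI is far larger than the spread between spots. On that array the 2 probes of miR-6366 read 1381 and 620, against 8895 and 3791 on replicate 2 and 9013 and 3838 on replicate 3.

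The 2 probes of miR-3968 were unequal. A_54_P00005696 carried most of its signal and read 13.6, 20.2, and 56.6 in sham, 37.5, 51.7, and 41.0 at 3 DPI, 165.7, 1100, and 1027 at 14 DPI, and 1758, 974, and 1240 at 42 DPI. It passed the background call on 2 of 3 sham arrays and on every injury array. With the undetected sham replicate 1 at its measured value, its log2 difference from sham was -0.01 at 3 DPI, 2.80 at 14 DPI, and 2.87 at 42 DPI. A_54_P00005695 was not well above background on any array of sham or 3 DPI, where it read between -0.30 and 2.98, and only bounds can be given for it there. It read 9.85, 89.9, and 84.2 at 14 DPI, detected on 2 of 3 arrays, and 189.5, 74.8, and 101 at 42 DPI, detected on 3 of 3. Against the dimmest probe signal called on each array, with no floor set on single probes, it was at least 1.15-fold higher at 42 DPI than in sham and at least 2.00-fold higher than at 3 DPI. No bound is given at 14 DPI, where replicate 1 was itself not above background.

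**Figure D2:**
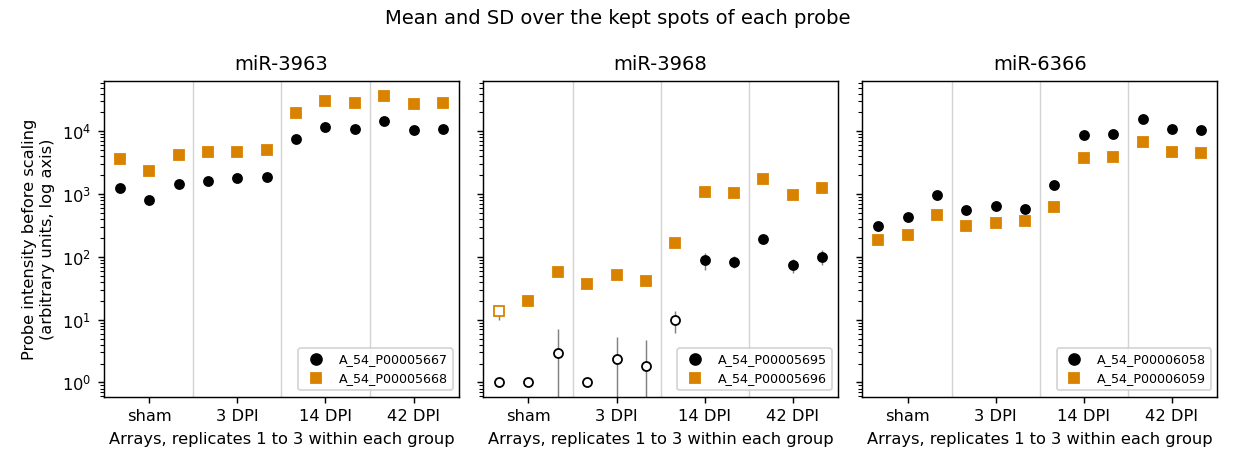
Intensity before scaling (arbitrary units, log axis) of the 2 probes of each miRNA on the 12 arrays, as the mean and SD over kept spots, with open symbols where the probe was not detected. Means under 1 are drawn at 1 without an error bar, and probe A_54_P00005695 of miR-3968 is open on all 6 arrays of sham and 3 DPI.

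The scanner software also gives a total signal per miRNA, and for miR-3968 it holds different things on different arrays. In sham and at 3 DPI the total listed for miR-3968 was 1036, 663, and 1220 and then 1357, 1720, and 1924. The total listed for miR-3963 on the same arrays was 1033, 659, and 1208 and then 1349, 1706, and 1913. The 2 totals differ by what the miR-3968 probe A_54_P00005696 gives by itself, which was 2.89, 4.28, and 12.01 in sham and 7.96, 14.1, and 11.3 at 3 DPI. On these 6 arrays the total of miR-3968 is thus the total of miR-3963 plus that of its own probe, to within 0.000748% of the total, and its own probe made up between 0.279% and 0.984% of it. On the 6 arrays of 14 and 42 DPI the total was 47.7, 325, and 300.2 and then 532, 282, and 367, which is the sum of its own probes alone to within 0.0002%, while miR-3963 had totals between 7439 and 14147. The own total of A_54_P00005695 reached at most 0.655 on the 6 arrays where the miR-3963 signal was included and was at least 2.68 on the others.

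Used as the level of miR-3968, the total signal turns its direction, with a log2 change of -4.35 at 14 DPI and -4.23 at 42 DPI in place of 2.64 and 2.73. Summing the software's own totals per probe instead, a choice made after seeing this, gave 2.63 and 2.71. For miR-3963 and miR-6366 the listed total was the sum of their own probes on all 12 arrays, to within 0.00035% and 0.00039%. miR-3968 was not alone in this respect. Between 80 and 123 of the 1881 miRNAs had, on a given array, a total over 10 that was more than 2 times that of their own probes. Why the software listed these totals so was not tested.

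**Figure D3:**
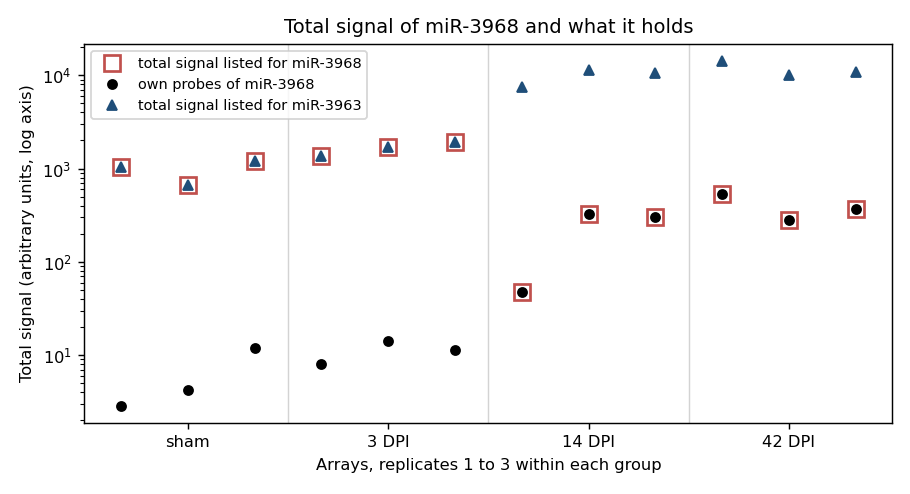
Total signal (arbitrary units, log axis) listed by the scanner software for miR-3968 (squares), the total of its own probes (circles), and the total listed for miR-3963 (triangles) on the 12 arrays. The squares lie on the triangles on the 6 arrays of sham and 3 DPI and on the circles on the 6 arrays of 14 and 42 DPI.

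The deposited table of processed log2 values follows the own probes of miR-3968 and not the listed total. In it miR-3968 had 3.95 ± 0.92 for sham, 3.71 ± 0.27 for 3 DPI, 6.78 ± 1.14 for 14 DPI, and 7.04 ± 0.11 for 42 DPI (SD, n = 3 arrays each). miR-6366 had 8.84 ± 0.52, 8.36 ± 0.05, 10.2 ± 0.88, and 10.4 ± 0.29 in the same order (SD, n = 3 arrays each). The courses of both are close to those from the intensities. miR-3963 is listed at the same value, 12.1, on the 3 arrays of 14 DPI and on 2 of 3 arrays of 42 DPI, so this table cannot separate these arrays, and its mean in sham was 11.3 ± 0.14 (SD, n = 3). How the table was scaled is not given in the sources used here.

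Among the processing choices, the direction at 14 and 42 DPI was kept by each alternative for miR-3963 and miR-6366, and by each alternative but the total signal for miR-3968. The size moved. Normexp background correction, which adds a constant before the log, brought miR-3968 down to 0.91 at 14 DPI and 0.90 at 42 DPI. A fit with a slide term, tied down by the single 3 DPI array of slide 1, gave log2 differences of 1.61, 2.69, and 1.67 at 14 DPI and 0.77, 2.78, and 1.90 at 42 DPI for miR-3963, miR-3968, and miR-6366. Their standard errors were 0.38, 0.90, and 0.93 at each time point, against 0.21, 0.47, and 0.49 in the main fit.

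**Figure D4:**
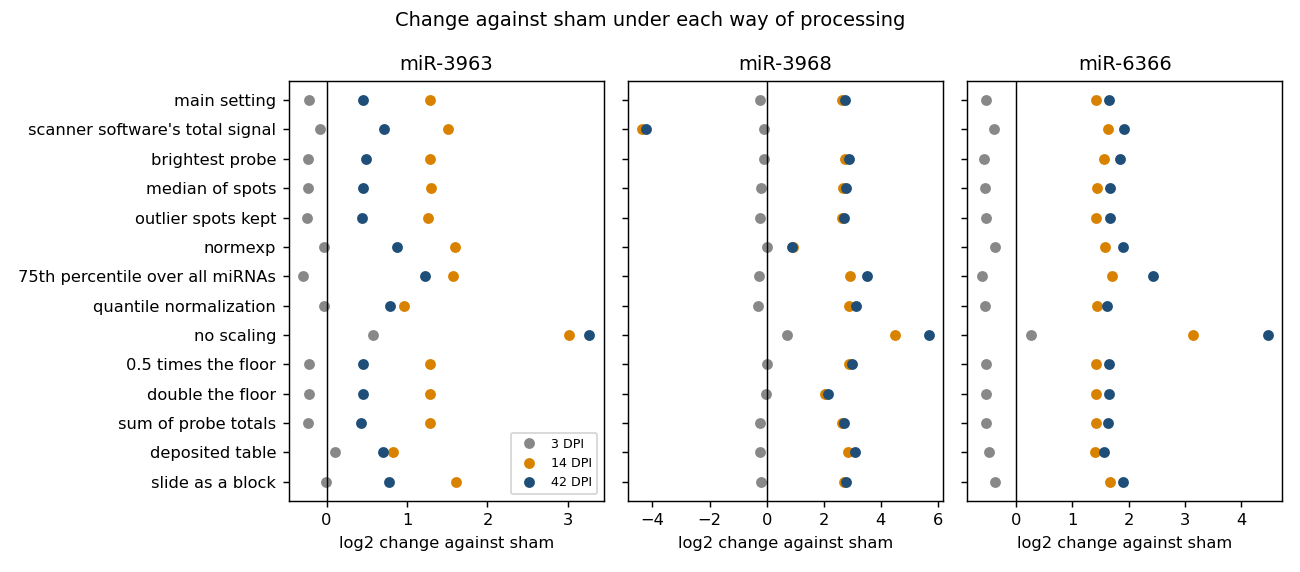
Log2 change against sham (horizontal axis) of miR-3963, miR-3968, and miR-6366 at 3, 14, and 42 DPI under the main way of processing and 13 alternatives, 1 per line. The points of 14 and 42 DPI lie right of 0 except those of miR-3968 under the scanner software's total signal (-4.35 and -4.23).

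Other miRNAs on the array resemble the members in sequence. Only the 1608 array miRNAs that matched the RefSeq table were searched for stretches of at least 9 bases in a row. Among these, miR-5100 is the only such relative of miR-3968, and miR-711, miR-7648-3p, and miR-3547-5p are those of miR-6366. miR-3963 has none among them. The relatives that were tested are shown, again with bases 2 to 8 in capitals, so that the shared stretch can be compared with the sequences of the members.
miR-5100: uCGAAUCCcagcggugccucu
miR-3547-5p: gUGGGAAGagggguggggcccggga
miR-5100 lies at chr11:60728698-60728718 on the plus strand and from its base 2 on holds the first 9 bases of miR-3968, so that the seeds of the 2 are shifted by 1. Its scaled level was 1.98 ± 0.10 for sham, 1.49 ± 0.20 for 3 DPI, 3.12 ± 0.24 for 14 DPI, and 2.07 ± 0.31 for 42 DPI (SD, n = 3 arrays each). It rose by 1.13 on the log2 scale at 14 DPI (limma, standard error 0.18, adjusted p = 0.039), with all 3 arrays above sham, and differed by 0.09 at 42 DPI (limma, adjusted p = 1). The call at 14 DPI is lost in 4 of 18 other settings, with no filter, only the groups compared, or the replicate number or slide as a block (adjusted p over the 18 from 4.9e-05 to 0.80, limma). It is also lost in 8 of 12 fits with 1 array left out, which are those without any 1 sham array, replicate 1 of 3 DPI, replicate 2 or 3 of 14 DPI, or replicate 1 or 3 of 42 DPI. miR-3547-5p, which holds 10 bases of miR-6366, was detected on all 12 arrays. Its log2 changes were -0.89 at 14 DPI (limma, adjusted p = 0.557) and -1.40 at 42 DPI (limma, adjusted p = 0.116). All arrays of 42 DPI and the lowest of 14 DPI were set to the floor. The falls may therefore be larger, and the spread at 42 DPI is lost. miR-711 was detected on 4 and miR-7648-3p on 0 of 12 arrays, and neither was tested.

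The profiles of the members over the 12 arrays were also set against all tested miRNAs. These correlations share arrays, scaling, and the split of groups, and are given as a description. miR-3968 and miR-6366 were each other's nearest profile, with a Pearson correlation of 0.966 over 12 arrays. The next for miR-3968 were miR-129-2-3p (0.965), miR-376a-3p (0.964), miR-219a-2-3p (0.957), and miR-127-3p (0.943). For miR-6366 they were miR-376a-3p (0.957), miR-129-2-3p (0.9502), miR-154-5p (0.941), and miR-219a-2-3p (0.934). Thus 3 miRNAs besides the members are on both lists. miR-376a-3p, miR-127-3p, and miR-154-5p come from the imprinted Dlk1-Dio3 region, miR-129-2-3p is rich in brain, and miR-219a-2-3p is a miRNA of oligodendrocytes. Their mean log2 differences from sham were smaller than those of miR-3968, with 0.63 and 0.74 at 14 and 42 DPI for miR-129-2-3p, 0.90 and 1.24 for miR-376a-3p, and 0.89 and 1.23 for miR-219a-2-3p. The nearest profile to miR-3963 was that of miR-5100 (0.955 over 12 arrays), which resembles miR-3968 in sequence, followed at a distance by miR-652-5p (0.726), miR-3968 (0.715), miR-129-2-3p (0.645), and miR-6366 (0.642).

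The registry numbers of the 3 fall in 2 stretches that hold 98 further miRNAs on this array, of which 19 were detected on some array and 17 were tested. The members were picked because they rose, so these values are a description and not a contrast with them. At 14 DPI their median log2 change was -0.06, against 0 over all miRNAs tested, with 4 of 17 above 0 and 0 called by limma (2 at an unadjusted p under 0.05), beside 0.823% of all tested called higher and 0.412% called lower. At 42 DPI the median was -0.42, against 0 over all, with 3 of 17 above 0, 0 called higher beside 7.2% of all tested, and 1 called lower beside 6.79%. The one called lower was miR-6385, with a log2 change of -2.87 (limma, adjusted p = 0.0292). That call is lost in 5 of 18 other settings, with double the floor, no filter, normexp, slide as a block, or no scaling, where the change was -0.05. It is also lost in 6 of 12 fits with 1 array left out, those without sham replicate 1 or 2, replicate 1 of 3 DPI, or any 1 array of 42 DPI. The largest value above 0 at 42 DPI was 0.10, for miR-6412 (limma, adjusted p = 0.891).

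Markers of the cells that could feed such a preparation were also read. Of all 1881 miRNAs, between 243 and 285 were detected per sham array and between 490 and 579 per array of 42 DPI. A rise in the detection of a marker is thus not particular to it. Of 5 microglial and myeloid miRNAs, miR-142a-5p was detected on no array, miR-142a-3p on no array of sham or 3 DPI and on 3 of 3 at 42 DPI, and miR-223-3p on 1 of 3 sham arrays and 9 of 9 injury arrays. miR-146a-5p was detected on 0, 1, 2, and 3 arrays of sham, 3, 14, and 42 DPI, and miR-155-5p on 1 array, of 42 DPI. Their summed scaled level, between -1.34 and -1.32 on all arrays, is close to the sum of 5 floors and shows no differences between arrays. Of 6 neuronal miRNAs, 5 were detected on all 12 arrays, and miR-124-3p on 0, 2, 3, and 0 arrays of sham, 3, 14, and 42 DPI. Their summed scaled level had ranges of 3.98 to 4.39 for sham, 3.96 to 4.42 for 3 DPI, 4.04 to 4.97 for 14 DPI, and 4.84 to 5.04 for 42 DPI. The 3 oligodendrocyte miRNAs were detected on all arrays and summed to between 0.85 and 1.33 in sham, 1.09 and 1.86 at 3 DPI, 1.11 and 2.04 at 14 DPI, and 2.04 and 2.15 at 42 DPI. Of 4 erythrocyte miRNAs, miR-144-3p and miR-144-5p were detected on no array, miR-451a on 0, 2, 2, and 2 arrays of the 4 groups in order, and miR-486a-5p on 0, 2, 2, and 3. Their sum lay between -1.66 and -1.49, at or near the floor, on all arrays. Of 2 endothelial miRNAs, miR-126a-3p was detected on all arrays and miR-126a-5p on 3 of 3 arrays of 42 DPI and none of sham, with sums from 0.11 to 0.55 in sham and 0.53 to 0.74 at 42 DPI. At 42 DPI the neuronal and oligodendrocyte sums thus lay above all sham arrays, as did the 3 members and 23.9% of all miRNAs tested. The microglial and myeloid, erythrocyte, and endothelial sums did not. The part of other cells in the levels of miR-3963, miR-3968, and miR-6366 was not tested. In sham, 4 of the 5 microglial and myeloid miRNAs were detected on no array.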

How the data were processed

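Per the labels and file headers, the authors scanned 12 single-color Agilent arrays and deposited, for each, a background-corrected intensity per spot (Agilent Feature Extraction 10.7.1.1) that is not normalized. A second deposited file gives processed log2 values, whose scaling is not given in the sources used here. Control and outlier spots were left out, spots averaged, and own probes summed. Each array was divided by the 75th percentile of its sums for the 230 miRNAs detected throughout, with a floor at -3.66 (log2). A miRNA was detected where more than 0.5 of the kept spots of 1 probe were well above background. Groups were fitted together with limma 3.58.1 in R 4.3.3, two-sided, with Benjamini-Hochberg adjustment over 486 miRNAs, and the fit was tested on simulated data. Tables were made in Python 3.11.15 (pandas 2.3.3, NumPy 2.4.6, SciPy 1.17.1) and figures with matplotlib 3.10.9. The number of arrays limits the precision. Named are the members, sequence relatives (a shared seed or 9 bases in a row), the 5 nearest profiles of each member, up to 3 miRNAs of neighboring registry numbers, and cell markers. The marker lists were written from general knowledge, and members and lists were chosen with earlier results of these data known. Same-numbered arrays of sham and 14 DPI deviated together from their group means (correlations across miRNAs of 0.84, 0.44, and 0.78). For 3 DPI (-0.44, 0.54, and -0.70) and 42 DPI (-0.41, -0.16, and 0.27) the signs were mixed. The pairing of sham with 14 DPI comes from these correlations alone.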

Additional observations from a re-analysis of the deposited data

How the results depend on the processing

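With 3 arrays per group, 1 array can move a value. Leaving out 1 array at a time, the log2 change of miR-3963 had ranges of -0.33 to -0.03 for 3 DPI, 1.16 to 1.36 for 14 DPI, and 0.28 to 0.60 for 42 DPI, the lowest of these without replicate 2 of 42 DPI. That of miR-3968 ran from -0.45 to 0.11 (without sham replicate 3), 2.34 to 3.22 (without replicate 1 of 14 DPI), and 2.51 to 3.06, and that of miR-6366 from -0.87 to -0.26, 1.08 to 1.99, and 1.32 to 1.93. Without scaling between arrays the median of all miRNAs tested shifted by 0.65, 1.31, and 1.92 at 3, 14, and 42 DPI. The changes were then 0.57, 3.01, and 3.27 for miR-3963, 0.70, 4.49, and 5.68 for miR-3968, and 0.26, 3.14, and 4.47 for miR-6366, or -0.08, 1.70, and 1.35, then 0.05, 3.18, and 3.76, then -0.39, 1.83, and 2.55 relative to that median. At 14 and 42 DPI, miR-3963 had 1.51 and 0.71 by the scanner software's total signal, 1.60 and 0.87 with normexp, 1.57 and 1.22 when the 75th percentile was taken over all miRNAs, 0.96 and 0.78 with quantile normalization, 0.83 and 0.70 in the deposited table, and 1.61 and 0.77 with slide as a block. In the deposited table it had 0.11 at 3 DPI. miR-3968 had -4.35 and -4.23 by the total signal and 0.91 and 0.90 with normexp. It had 3.50 at 42 DPI with that percentile, 2.13 at 42 DPI with double the floor, and 0.029 at 3 DPI with 0.5 times the floor, and miR-6366 had 2.43 at 42 DPI with the percentile of all miRNAs. Over these alternatives the adjusted p at 3 DPI ran from 0.300 to 1 (limma). The deposited table had medians of all miRNAs of -0.03, 0.14, and 0.44 at the 3 time points. A replicate block cannot move the differences of a design with each number in every group, and in this paired fit they were -0.22, 1.29, and 0.45 for miR-3963, -0.22, 2.64, and 2.73 for miR-3968, and -0.54, 1.42, and 1.65 for miR-6366, with an adjusted p of 1 at 3 DPI for each (limma). The stricter filter, which tests only miRNAs detected on all 12 arrays, leaves out miR-3968. The cause of these moves was not tested.

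Over all miRNAs, limma called 0, 6, and 68 at 3, 14, and 42 DPI. The numbers were 31, 65, and 103 with normexp, 4, 19, and 146 where the percentile was taken over all miRNAs, and 95, 143, and 249 in the deposited table. At 14 and 42 DPI they were 13 and 142 by the total signal, 321 and 409 without scaling, 17 and 127 with 0.5 times the floor, 3 and 24 with double the floor, 0 and 0 without a filter, 0 and 139 with only the groups compared, 0 and 27 with the replicate block, and 0 and 0 with slide as a block. Quantile normalization called 120 at 42 DPI, and the names as written in each file gave 1 at 3 DPI. Leaving out 1 array gave 0 to 82 at 14 DPI, the highest without its replicate 1, and 0 to 133 at 42 DPI.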
